A study of Mus musculus with 36 samples.

Results

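Cox6a2 is the mouse gene for the isoform of cytochrome c oxidase subunit 6A that is best known from heart and skeletal muscle. It is described here as 1 gene of the 56184 in the count table, in 36 libraries of polyadenylated RNA from mouse brain. It was chosen by its measured rise in Gpt2 knockouts in these same libraries, so its knockout against wild-type values are given as a description, with no test. Gpt2 encodes the mitochondrial alanine transaminase, which moves the amino group between alanine and α-ketoglutarate. The 4 groups were Gpt2-WT mice given vehicle (WT-Veh, 10 libraries), Gpt2-WT mice given dm-αKG (WT-aKG, 8), Gpt2-KO mice given vehicle (KO-Veh, 10) and Gpt2-KO mice given dm-αKG (KO-aKG, 8). dm-αKG, a cell-permeable dimethyl ester of α-ketoglutarate, was injected into the peritoneum at 600 mg per kg, brains were taken at postnatal day 19, and 10 mg of tissue gave the RNA. The sources used here do not state how the knockout was made, the strain, or which part of the brain was sampled. The submitters call the libraries of a group biological replicates, but no label ties a library to its own animal, so the tests measure variation between libraries, part of which may be technical.

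Cytochrome c oxidase, or complex IV, is the last enzyme of the mitochondrial respiratory chain: it passes electrons to oxygen and pumps protons. Its core is made of 3 subunits encoded in mitochondrial DNA, and the nuclear subunits around it include several with tissue-specific isoforms. Subunit 6A has a widely expressed form, Cox6a1, and the muscle form Cox6a2, and this subunit takes part in the control of the enzyme by ATP and ADP. In brain, Cox6a2 has been described as enriched in fast-spiking parvalbumin interneurons, and muscle forms also exist for subunits 7A (Cox7a1) and 8 (Cox8b).

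Cox6a2 (ENSMUSG00000030785.8) lies on the minus strand at chr7:128205435-128206387 in GRCm38 (GENCODE annotation), with 3 exons, a transcript of 680 bases and a coding part of 294 bases. Cox6a1 (ENSMUSG00000041697.8) lies on the minus strand at chr5:115345642-115348981, with a transcript of 571 bases and a coding part of 339 bases. The stretch of 120 coding bases below is shown as an example of how the coding parts of the paralogues differ. It does not by itself decide whether their reads can be told apart. It covers coding bases 158 to 277 of Cox6a2 and 203 to 322 of Cox6a1, 5′ to 3′, with the bases that differ in capitals.
Cox6a2: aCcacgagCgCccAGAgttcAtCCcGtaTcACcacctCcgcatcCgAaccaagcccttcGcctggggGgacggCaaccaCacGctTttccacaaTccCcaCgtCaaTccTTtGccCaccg
Cox6a1: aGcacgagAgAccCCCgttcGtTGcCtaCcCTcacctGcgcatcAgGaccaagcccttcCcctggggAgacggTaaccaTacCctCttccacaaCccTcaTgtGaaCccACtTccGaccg
In this stretch 89 of the 120 bases were identical, and over the whole aligned coding part 193 of 290 were (66.6%). The longest run of bases that the paralogues' transcripts share was 12 bases. Of the 650 stretches of 31 bases in the Cox6a2 transcript, 40 also occur in a transcript of Itgad, an integrin gene on the opposite strand, and in no other gene. Of the 541 such stretches in the Cox6a1 transcript, 129 also occur in a transcript of AC148174.2, the only other gene that shares any.

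Libraries held 5.77 to 13.3 M counts (median 11.4 M), of which mitochondrial ribosomal RNA made up 14.1% to 29.8%. Gpt2 had a mean of 30.2 CPM in WT-Veh, 32.3 in WT-aKG, 2.04 in KO-Veh and 2.37 in KO-aKG, and all 18 knockout libraries lay below every wild-type library. CPM here are counts divided by library size after TMM scaling, which sets libraries on a common scale. The neuronal gene Snap25 lay between 362 and 882 CPM in every library, and the astrocyte gene Slc1a2 and the myelin gene Mbp had at least 236 and 1848 CPM. The libraries differed widely in markers of brain regions. A cerebellum score (mean log2 CPM of 19 cerebellum markers such as Cbln1, Gabra6 and Pcp2) exceeded its overall mean by more than 1 log2 unit in 9 libraries: 3 WT-Veh, 4 WT-aKG, 1 KO-Veh (KO-Veh-7) and 1 KO-aKG (KO-aKG-7). These 9 are called cerebellum-rich below, and results are given with and without them.

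Cox6a2 was low in wild-type brain and about 10-fold higher in knockout brain under both treatments. In WT-Veh it lay between 0.668 and 15.1 CPM with a median of 9.50, and its mean was 7.60 ± 4.81 (SD, n = 10). In WT-aKG it lay between 1.06 and 9.38 CPM with a median of 4.32, and its mean was 5.18 ± 3.43 (SD, n = 8). In KO-Veh it lay between 5.94 and 132 CPM with a median of 76.4, and its mean was 76.3 ± 34.6 (SD, n = 10). The single low value of this group was KO-Veh-7, and the next lowest library, KO-Veh-6, had 43.8 CPM. In KO-aKG it lay between 28.0 and 94.7 CPM with a median of 56.3, and its mean was 56.6 ± 19.9 (SD, n = 8). Of the 18 knockout libraries, 17 lay above the highest wild-type library, WT-Veh-4 with 15.1 CPM. KO-Veh-7 was below 10 of the 18 wild-type libraries.

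The fitted log2 fold change of Cox6a2 between knockout and wild type was 3.34 (SE 0.46), or 10.1-fold, with vehicle and 3.46 (SE 0.52), or 11.0-fold, with dm-αKG. The levels rest on 9 to 132 counts per library in WT-Veh, 12 to 97 in WT-aKG, 67 to 1135 in KO-Veh and 278 to 1044 in KO-aKG, and the lowest counts carry the largest relative counting error. The deposited CPM table gave means of 7.04 ± 4.23, 4.70 ± 2.71, 71.7 ± 28.4 and 60.3 ± 19.3 (SD) in the same order. With dm-αKG every knockout library lay above every wild-type library, which held for 0.412% of the 16255 genes tested. With vehicle KO-Veh-7 overlapped the wild type, while 0.24% of genes had no such overlap. The rule that chose Cox6a2 used these contrasts, so nothing is read from its place among those genes.

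**Figure D1:**
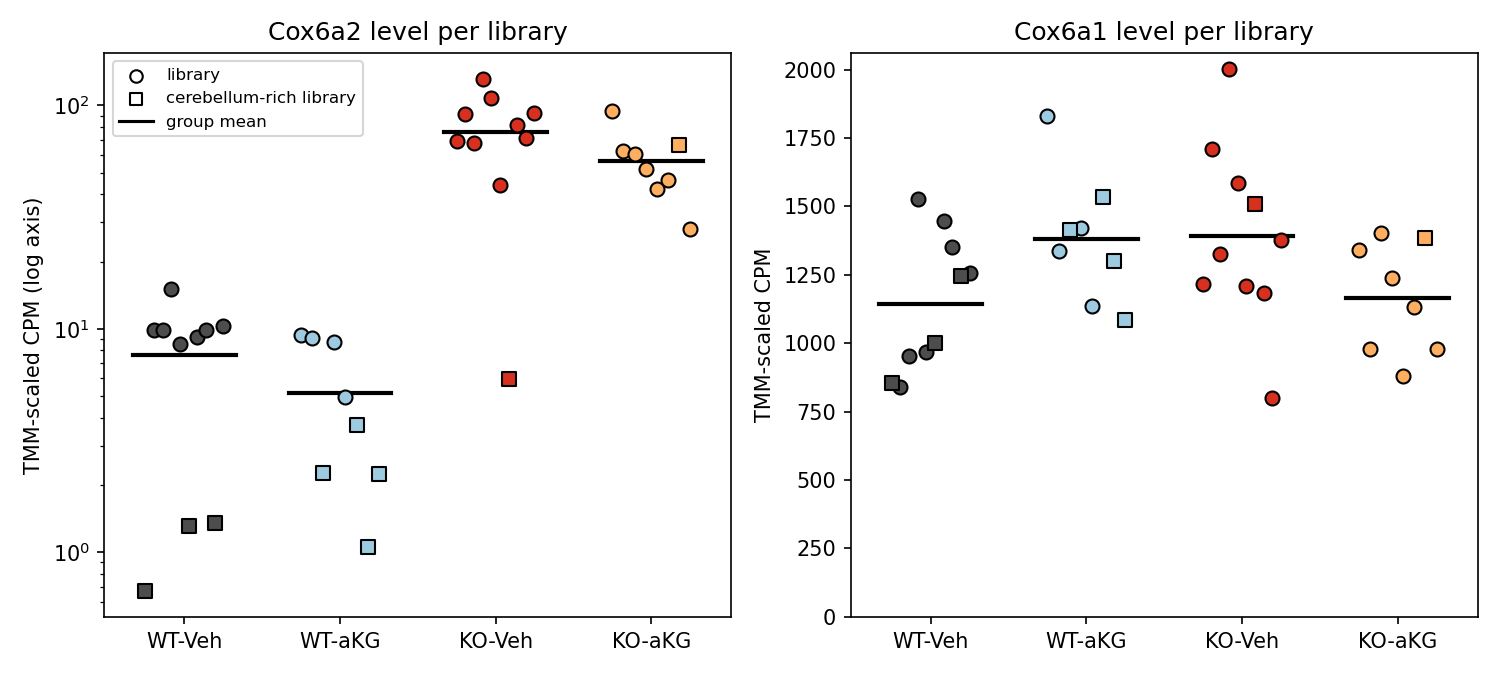
TMM-scaled CPM of Cox6a2 (left, log axis) and Cox6a1 (right, linear axis from 0) in each of the 36 libraries, by group; points are libraries, squares are cerebellum-rich libraries and lines are group means. Cox6a2 means were 7.60 and 5.18 in wild type and 76.3 and 56.6 in knockout, KO-Veh-7 at 5.94 CPM was the only knockout library within the wild-type range, and Cox6a1 overlapped in all groups.

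A gene was called where edgeR's quasi-likelihood test gave a p under 0.05 after Benjamini-Hochberg adjustment over all 16255 genes. Genes were ranked by fold change among called genes averaging 5 CPM or more, leaving out predicted-gene names (Gm or Rik). Of these, 338 were higher in knockout with vehicle. Cox6a2, chosen for this difference, had the largest log2 fold change of them, which restates that choice. Next came Chac1 (2.98), which degrades glutathione, Slc7a3 (2.68), a carrier of cationic amino acids, and Mt3 (2.44), the brain metallothionein. Chac1 and Slc7a3 are targets of the stress factor ATF4. With dm-αKG, Cox6a2 was the third by the same order, after Pmch (6.17) and Hcrt (5.90), the genes of 2 hypothalamic neuropeptides, and before Slc7a3 (2.90), Chac1 (2.76) and Mt3 (2.28). Both varied widely between libraries: Pmch had 73.9 ± 141 CPM in KO-aKG (SD, n = 8) and Hcrt 26.2 ± 65.6. Below 5 CPM other genes had larger fitted log2 fold changes, such as the ATF4 target Fgf21 (3.68 with vehicle and 5.88 with dm-αKG). The description of Cox6a2 as the strongest rise therefore does not hold for the dm-αKG groups, nor with vehicle once genes below 5 CPM are counted.

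Within each wild-type group Cox6a2 separated the cerebellum-rich libraries from the others. The 3 cerebellum-rich WT-Veh libraries had 0.668, 1.31 and 1.35 CPM, and the other 7 had 8.58 to 15.1, a 9.36-fold difference of means. The 4 cerebellum-rich WT-aKG libraries had 1.06 to 3.71 CPM and the other 4 had 4.94 to 9.38, a 3.48-fold difference. The groups so split did not overlap in either case. The share of all genes that separate on this split was not counted, so the separation is not read as particular to Cox6a2. KO-Veh-7 had the highest cerebellum score of all (7.36) and the lowest cortex score (1.90, the mean log2 CPM of 12 cerebral cortex markers such as Neurod6). Its Cox6a2 level was 5.94 CPM from 67 counts, which is 5.36-fold the mean of the 3 cerebellum-rich WT-Veh libraries. KO-aKG-7 had 66.8 CPM of Cox6a2, which is 28.9-fold the mean of the 4 cerebellum-rich WT-aKG libraries. Its cerebellum score was 5.82 and its cortex score 4.48, and it did not stand apart from its group. Each of these folds sets a single knockout library against a few wild-type ones.

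Without the cerebellum-rich libraries the genotypes did not overlap under either treatment. Cox6a2 then had 10.4 ± 2.14 CPM in WT-Veh (SD, n = 7) and 84.2 ± 25.7 in KO-Veh (n = 9), with the lowest knockout at 43.8 and the highest wild type at 15.1. With dm-αKG the means were 8.05 ± 2.09 in WT-aKG (n = 4) and 55.2 ± 21.0 in KO-aKG (n = 7), with the lowest knockout at 28.0 and the highest wild type at 9.38. The fitted log2 fold changes were 3.02 (SE 0.23) with vehicle and 2.78 (SE 0.30) with dm-αKG. The share of all genes with every knockout library above every wild-type one was 0.572% and 2.36% in these libraries. With the cerebellum score as a covariate in all 36 libraries the log2 fold changes were 2.92 and 3.31. The cerebellum score itself had a mean of 4.40 ± 1.88 in WT-Veh, 4.30 ± 2.47 in WT-aKG, 3.06 ± 1.72 in KO-Veh and 3.18 ± 1.44 in KO-aKG, lower on average in the knockout groups. All 19 tested cerebellum markers had log2 fold changes below 0 in both genotype comparisons (medians -1.09 and -1.98), and 0 of them were called by edgeR. At an unadjusted p under 0.05 there were 2 with vehicle and 5 with dm-αKG, where 21.0% and 15.7% of all genes passed that threshold. DESeq2 called 0 and 1, against 7.34% and 3.99% of the genes it adjusted.

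**Figure D2:**
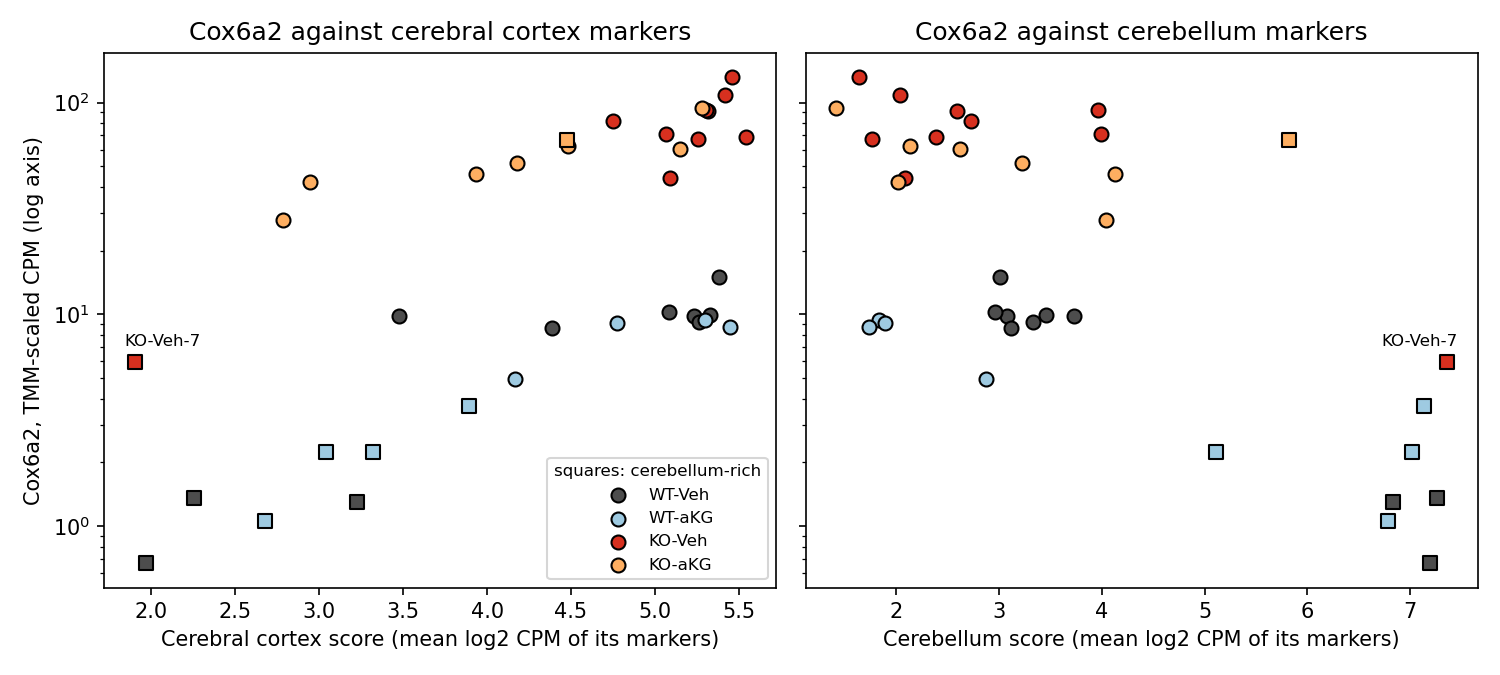
Cox6a2 level (TMM-scaled CPM, log axis) against the cerebral cortex score (left) and the cerebellum score (right), both in mean log2 CPM of their markers; each point is a library, coloured by group, and squares are cerebellum-rich. Within each genotype the libraries with the lowest cortex scores had low Cox6a2; KO-Veh-7, with a cortex score of 1.90, stood at 5.94 CPM, above WT-Veh-1 (0.668 CPM) at a like score of 1.97.

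Treatment with dm-αKG did not change the Cox6a2 level beyond the spread between libraries in either genotype. In wild type the log2 fold change of dm-αKG against vehicle was -0.55 (SE 0.48, 95% interval -1.49 to 0.38), with an adjusted p of 0.859 in edgeR. In knockout it was -0.43 (SE 0.44, 95% interval -1.29 to 0.43), with an adjusted p of 0.735. Both intervals extend from a fall of over 1 log2 unit to a smaller rise. The difference between the genotype effects under dm-αKG and vehicle was 0.12 (SE 0.64, 95% interval -1.13 to 1.38; adjusted p = 0.993 in edgeR). In these 3 comparisons edgeR called 0 of the 16255 genes, with 1389, 1973 and 729 genes (8.55%, 12.1% and 4.48%) at an unadjusted p under 0.05. DESeq2 called 90 (1.62% of the genes it adjusted), 20 (1.39%) and 0. The order of the means was KO-Veh, KO-aKG, WT-Veh, WT-aKG, and neither the first pair nor the last pair in this order differed beyond its spread.

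The size and sign of the knockout treatment difference depended on the processing. With the cerebellum score as a covariate it was -0.17 (SE 0.30, adjusted p = 0.809 in edgeR). In the deposited CPM table with limma it was -0.06 at a pseudocount of 0.5 (SE 0.48). Without the cerebellum-rich libraries it was -0.61 (SE 0.20), with an unadjusted p of 0.00626 and an adjusted p of 0.110 in edgeR. With the cortex score as a covariate, an analysis chosen after seeing the data, it turned to 0.44 (SE 0.23, adjusted p = 0.402 in edgeR). The mean cortex score was 4.91 ± 1.08 in KO-Veh and 4.15 ± 0.92 in KO-aKG (SD). Its part in the treatment difference was not tested further.

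Cox6a1 was far more abundant than Cox6a2 and had no genotype difference that passed the test. Its mean was 1144 ± 251 CPM in WT-Veh, 1382 ± 234 in WT-aKG, 1392 ± 331 in KO-Veh and 1167 ± 203 in KO-aKG (SD). In WT-Veh it lay between 839 and 1528 CPM (median 1122) and in KO-Veh between 799 and 2000 (median 1351), and the ranges overlapped widely. Knockout against wild type gave a log2 fold change of 0.28 (SE 0.13, 95% interval 0.02 to 0.55; adjusted p = 0.224 in edgeR) with vehicle. With dm-αKG it was -0.24 (SE 0.15, 95% interval -0.54 to 0.05; adjusted p = 0.446).

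Per kilobase of transcript, Cox6a2 made up 0.548% ± 0.341 of the summed level of the pair in WT-Veh, 0.307% ± 0.187 in WT-aKG, 4.47% ± 1.80 in KO-Veh and 3.88% ± 1.03 in KO-aKG (SD). Because these libraries were primed at the poly(A) tail, a scale per length may not fit them, and as a share of counts the values were 0.652%, 0.365%, 5.27% and 4.58%. By counts, the lowest share was 0.0780% in WT-Veh-1 (95% exact binomial interval 0.0357% to 0.148%) and the highest was 8.17% in KO-Veh-9 (7.72% to 8.64%). These intervals cover counting error only. KO-Veh-7 stood at 0.392% (0.304% to 0.498%), within the wild-type range of 0.0780% to 1.16%. Even in the knockouts, Cox6a1 thus supplied over 91% of the pair's counts in every library.

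The ratio of the paralogues within a library does not depend on library scaling. The log2 ratio of Cox6a2 to Cox6a1 counts was -7.74 ± 1.50 in WT-Veh and -8.37 ± 1.06 in WT-aKG (SD), a difference of -0.64 (SE 0.60; exact two-sided permutation p = 0.318, adjusted over 2 tests 0.635). In knockout it was -4.45 ± 1.29 with vehicle and -4.42 ± 0.40 with dm-αKG, a difference of 0.02 (SE 0.43; exact permutation p = 0.924, adjusted 0.924). Without the cerebellum-rich libraries the wild-type difference was -0.66 and passed the exact permutation test (7 against 4 libraries, adjusted p = 0.0242), and the knockout difference turned to -0.38 (adjusted p = 0.0820). In those wild-type libraries Cox6a2 itself differed by -0.36 (SE 0.28, adjusted p = 0.770 in edgeR). Mean Cox6a1 was 1192 CPM in WT-Veh and 1431 in WT-aKG there, so the ratio is not read as a fall of Cox6a2 alone. Without KO-Veh-7 alone the knockout difference of the ratio was -0.37.

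No other nuclear subunit of complex IV was called higher in knockout by edgeR, against 2.6% of all genes with vehicle and 1.12% with dm-αKG. For so few genes this is near those shares, so it is not read as a result about them. Of 18 listed subunits besides Cox6a2, 17 were tested, and Cox8c, a testis form, had 2 counts in all libraries together. With vehicle edgeR called 0 of the 17, against 4.31% of all genes, and DESeq2 called 0, against 7.34% of the genes it adjusted. Their log2 fold changes ran from -1.05 to 0.28 with a median of 0.13, beside -0.02 over all genes tested, and 3 of them (Cox6a1, Cox6b2 and Cox8b) had an unadjusted p under 0.05, against 21.0% of all genes. Without KO-Veh-7, Cox6b2, a form best known from testis, fell (log2 fold change -1.17, adjusted p = 0.0227 in edgeR), among 10.3% of genes called without that library. That fit kept 3 cerebellum-rich libraries in WT-Veh and no such library in KO-Veh. Without all cerebellum-rich libraries the value of Cox6b2 was -0.50 (adjusted p = 0.101 in edgeR, where 3.77% of genes were called).

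With dm-αKG 1 of the 17 passed, against 1.87% of all genes. Cox8a, the widely expressed form of subunit 8, fell from 1379 ± 307 CPM in WT-aKG to 859 ± 225 in KO-aKG (SD), a log2 fold change of -0.68 (SE 0.18; adjusted p = 0.0423 in edgeR). The call was lost without any 1 of 12 of the 16 libraries (adjusted p up to 0.115): WT-aKG-1, 2, 3, 4, 6 and 7 and KO-aKG-1, 2, 4, 5, 6 and 8. It held in 5 of 11 other settings (adjusted p of 0.0133 to 0.138). The median of the list was -0.24, beside -0.02 over all genes, and 14 of the 17 were below 0. DESeq2 called 2, Cox8a and Cox6b1, against 3.99% of the genes it adjusted.

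The other muscle forms of complex IV subunits did not pass the test. Cox7a1 had means of 12.0 ± 8.42 CPM in WT-Veh and 8.07 ± 6.32 in KO-Veh, with a log2 fold change of -0.58 (adjusted p = 0.392 in edgeR), and -0.75 (adjusted p = 0.402) with dm-αKG. Cox8b had 1.78 ± 0.99 CPM in WT-Veh and 0.855 ± 0.535 in KO-Veh, with a log2 fold change of -1.05 (adjusted p = 0.171), and 0.01 (adjusted p = 0.994) with dm-αKG. Both point values were below 0 with vehicle, opposite in sign to Cox6a2, where 3 WT-Veh libraries and 1 KO-Veh library were cerebellum-rich. Across the 36 libraries, after each group was centred, Pearson's r with Cox6a2 was -0.85 for Cox7a1 and -0.49 for Cox8b. The part of region content in these fold changes was not tested. The mitochondrially encoded core subunits mt-Co1, mt-Co2 and mt-Co3 had medians of 0.12 and -0.36. In either comparison 0 of them were called by edgeR or DESeq2, with 0 at an unadjusted p under 0.05. Among all genes tested, edgeR called 4.31% and 1.87%, and 21.0% and 15.7% had an unadjusted p under 0.05. DESeq2 called 7.34% and 3.99% of the genes it adjusted. For so few genes a count of 0 is near those shares, so it is not read as a result about them.

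Of the 27 listed assembly factors, proteins that build the complex and are not part of it, 26 were tested. With vehicle only Cox16 was called: it rose from 25.2 ± 2.61 to 32.9 ± 4.10 CPM (SD, n = 10 each), a log2 fold change of 0.39 (SE 0.08; adjusted p = 0.00637 in edgeR). Cox16 helps to mature the copper-carrying core subunit 2. Its call held without each of the 20 libraries in turn (adjusted p up to 0.0157) and in 8 of 11 other settings, and was lost in the deposited CPM table with limma (adjusted p up to 0.109). With dm-αKG only Coa5 was called: it fell from 50.6 ± 9.62 to 34.2 ± 4.05 CPM (SD, n = 8 each), a log2 fold change of -0.56 (SE 0.13; adjusted p = 0.0212 in edgeR). This call was lost without WT-aKG-1, KO-aKG-2 or KO-aKG-8 (adjusted p up to 0.0609). The medians of the list were 0.07 and 0.04, beside -0.02 over all genes, and DESeq2 called 2 and 3 of the factors. Over all genes edgeR called 4.31% and 1.87%, and DESeq2 called 7.34% and 3.99% of the genes it adjusted. The vehicle counts, 1 and 2 of 26, are near these shares. Those with dm-αKG, 1 and 3 of 26, are above them by few genes, which was not tested.

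**Figure D3:**
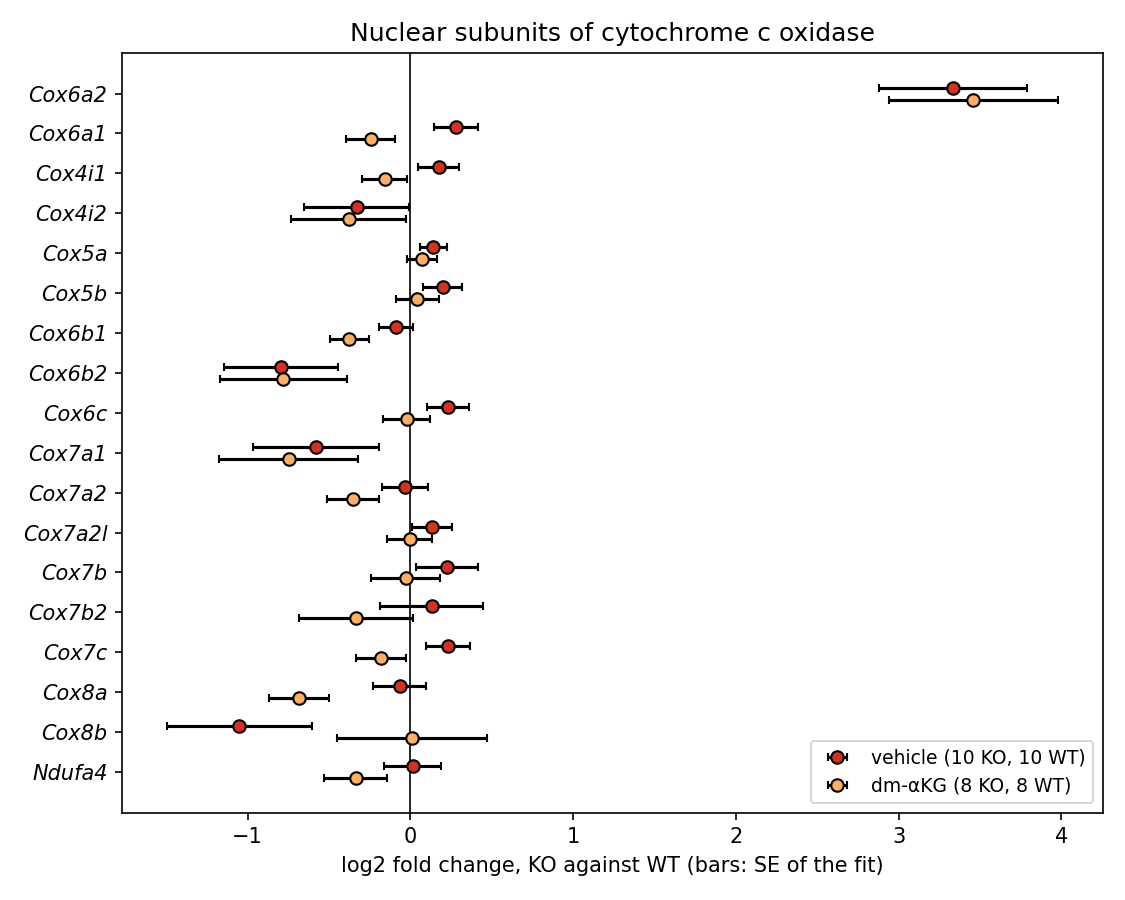
Fitted log2 fold change of knockout against wild type for Cox6a2 and the 17 other nuclear complex IV subunits tested, with vehicle (red) and with dm-αKG (orange); points are estimates and bars are their standard errors. Cox6a2 stands at 3.34 and 3.46, while the other subunits lie between -1.05 and 0.28, and Cox8a with dm-αKG (-0.68) is the only other one called.

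Markers of the parvalbumin interneurons in which Cox6a2 has been described were not called higher in knockout over all 36 libraries. In bulk tissue, fewer cells of a type and less RNA per cell cannot be told apart. Of 12 listed parvalbumin interneuron markers 11 were tested, and 0 were called by edgeR or DESeq2 in either genotype comparison, with 3 and 3 at an unadjusted p under 0.05. Over all genes edgeR called 4.31% and 1.87% (2.6% and 1.12% higher), and 21.0% and 15.7% had an unadjusted p under 0.05. DESeq2 called 7.34% and 3.99% of the genes it adjusted. For 11 genes a count of 0 is near the shares called, so it is not read as a result about them. Without the cerebellum-rich libraries 1 of the list was called with dm-αKG: Kcns3, a potassium channel subunit, was higher in knockout (1.13, SE 0.29; adjusted p = 0.0312 in edgeR), where 3.63% of all genes were called. The list's median log2 fold change over all libraries was -0.24 with vehicle and 0.23 with dm-αKG. The summed level of the 11 ran from 194 to 2925 CPM in WT-Veh, 138 to 2352 in WT-aKG, 146 to 2835 in KO-Veh and 198 to 1180 in KO-aKG. None of the 11 was at 0 in all libraries.

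Pvalb, the calcium buffer that names these cells, is also a gene of cerebellar Purkinje and molecular layer neurons. It ran from 91.9 to 2058 CPM in WT-Veh (median 155) and from 60.8 to 2169 in KO-Veh (median 112), where the highest value was KO-Veh-7. Its log2 fold change was -0.93 (SE 0.79; adjusted p = 0.519 in edgeR) in the vehicle groups and -1.57 (SE 0.90; adjusted p = 0.405) in the dm-αKG groups. Without the cerebellum-rich libraries it was -0.23 (adjusted p = 0.738) and 1.31 (SE 0.39; adjusted p = 0.0584), with 3.63% of genes called in the second comparison. KO-Veh-7 thus combined the highest Pvalb level of its group with the lowest Cox6a2 level.

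Of the 39 tested markers in 4 interneuron lists (parvalbumin, somatostatin, VIP and other, and shared GABA genes), 2 rose with vehicle, a share near the 4.31% of all genes called. Cort, the neuropeptide cortistatin, went from 4.62 ± 4.02 to 17.1 ± 7.71 CPM (SD, n = 10 each), a log2 fold change of 1.89 (SE 0.56; adjusted p = 0.0443 in edgeR). Npy, neuropeptide Y, went from 44.4 ± 27.7 to 122 ± 105 CPM, a log2 fold change of 1.46 (SE 0.42; adjusted p = 0.0391). Both belong to the somatostatin list, whose median was 0.53. Cort held its call in 5 of 11 other settings and Npy in 2 of 11. When libraries were left out, Cort lost its call without any 1 of 11 libraries (WT-Veh-1, 2, 5, 6 and 9 and KO-Veh-1, 2, 4, 5, 8 and 10; adjusted p up to 0.0858). Npy lost it without any 1 of 10 libraries (WT-Veh-1, 2, 6, 7, 8, 9 and 10 and KO-Veh-1, 4 and 9; adjusted p up to 0.0998). Without KO-Veh-7, when 10.3% of all genes were called, there were 8 calls, among them Cort and Npy higher and Pvalb, Syt2, Kcnc1, Ank1 and Nos1 lower (Pvalb -2.41, adjusted p = 0.0366). KO-Veh-7 was the only cerebellum-rich KO-Veh library, so that fit set 3 cerebellum-rich WT-Veh libraries against no such knockout library. Without all cerebellum-rich libraries only Cort was called (1.56, adjusted p = 0.0336 in edgeR), and Pvalb was at -0.23 (adjusted p = 0.738). DESeq2 called 5 of the 39, against 7.34% of the genes it adjusted.

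Sst had a log2 fold change of 0.81 (SE 0.46; adjusted p = 0.302) with vehicle, Vip 1.15 (SE 0.57; adjusted p = 0.239), and Gad1, which makes GABA, -0.26 (SE 0.23; adjusted p = 0.529). With dm-αKG edgeR called 0 of the 39 markers, with 6 at an unadjusted p under 0.05, and DESeq2 called 0. The shares in edgeR were 1.87% and 15.7% of all genes, and in DESeq2 3.99% of the genes it adjusted. The values there were 0.65 (adjusted p = 0.574) for Sst, 0.54 (adjusted p = 0.732) for Vip and 0.16 (adjusted p = 0.821) for Gad1. Medians of the VIP and other list were -0.16 and 0.17, and those of the shared GABA list 0.28 and 0.38.

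Markers of skeletal and cardiac muscle overlapped between the genotypes. The summed level of 28 markers lay between 40.4 and 80.1 CPM in WT-Veh, 44.3 and 91.6 in WT-aKG, 49.5 and 92.0 in KO-Veh, and 55.5 and 75.4 in KO-aKG. As with the interneuron sums, no TMM scaling was applied. The muscle creatine kinase Ckm had 63 counts in all 36 libraries together, too few to test. Skeletal actin Acta1 had 13.3 ± 6.81 CPM in WT-Veh and 17.2 ± 4.54 in KO-Veh, with a log2 fold change of 0.38 (adjusted p = 0.462 in edgeR), and -0.09 (adjusted p = 0.926) with dm-αKG. Of the 15 markers tested, edgeR called 0 with vehicle and 2 had an unadjusted p under 0.05, beside 4.31% and 21.0% of all genes. DESeq2 called 0, beside 7.34% of the genes it adjusted. With dm-αKG the giant thin-filament protein Neb was lower (-2.13, adjusted p = 0.0441), a call that was lost without any 1 of 10 libraries (WT-aKG-3, 6 and 7 and KO-aKG-1, 2, 3, 4, 5, 6 and 8; adjusted p up to 0.130) and not made by DESeq2.

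ATF4 targets, in contrast, were higher in knockout as a group. Of 32 listed, 22 were called higher with vehicle and 20 with dm-αKG, against 2.6% and 1.12% of all genes, and 0 were called lower. Their medians were 0.95 and 0.97, beside -0.02 over all genes. The ATF4 score (mean log2 CPM of the list) was 3.14 ± 0.11 in WT-Veh, 3.08 ± 0.10 in WT-aKG, 4.14 ± 0.24 in KO-Veh and 4.10 ± 0.27 in KO-aKG (SD). KO-Veh-7, where Cox6a2 was low, had an ATF4 score of 3.85, above the highest wild-type score of 3.38. These counts share their libraries with the choice of Cox6a2 and are set beside it only as a description.

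Genes whose level moved with Cox6a2 from library to library within a group were sought by Pearson's r of log2 CPM after each group was centred on its mean. Over 36 libraries and 10887 genes averaging 5 CPM or more, the median r was -0.05, and 123 genes (1.13%) had an r above 0.9. The 10 highest were Stum (0.961), Ildr2 (0.945), D430019H16Rik (0.942), Prickle2 (0.941), Icam5 (0.941), Ptk2b (0.940), Begain (0.938), Hs3st4 (0.936), Pld3 (0.936) and Rprml (0.936). Icam5 encodes a cell adhesion protein of forebrain neurons, and Ptk2b a calcium-regulated tyrosine kinase. These values rest in part on the cerebellum-rich libraries: over the other 27 libraries the same 10 genes had an r of 0.748 to 0.868, and Stum was again the first of all genes. Sst had an r of 0.902 over 36 libraries and Pvalb -0.81, and over the other 27 these were 0.657 and -0.49. Library composition and scaling are shared by all genes, so these correlations are a description.

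The 10 genes had small genotype differences that did not pass the test. In edgeR 0 of the 10 were called in either comparison, against 4.31% and 1.87% of all genes. At an unadjusted p under 0.05 there were 0, against 21.0% and 15.7% of all genes. For 10 genes, 0 calls is near the shares called, so it is not read as a result about them. The log2 fold changes of the 10 ran from 0.22 to 0.75 (median 0.46) with vehicle. With dm-αKG they ran from -0.09 to 0.36 (median 0.17). The level of Cox6a2 relative to Stum is given as a description: Stum was picked for following Cox6a2 within groups, which narrows the spread by construction, and Cox6a2 for its genotype difference. The log2 level of Cox6a2 minus that of Stum lay between -4.03 and -2.51 in WT-Veh and between -4.18 and -2.35 in WT-aKG. It lay between -0.88 and 0.86 in KO-Veh and between -0.60 and 0.58 in KO-aKG. KO-Veh-7 was the highest library of its group on this scale, since Stum was at 3.28 CPM there. In the knockouts Cox6a2 was thus near the level of Stum in CPM, and in the wild type well below it.

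**Figure D4:**
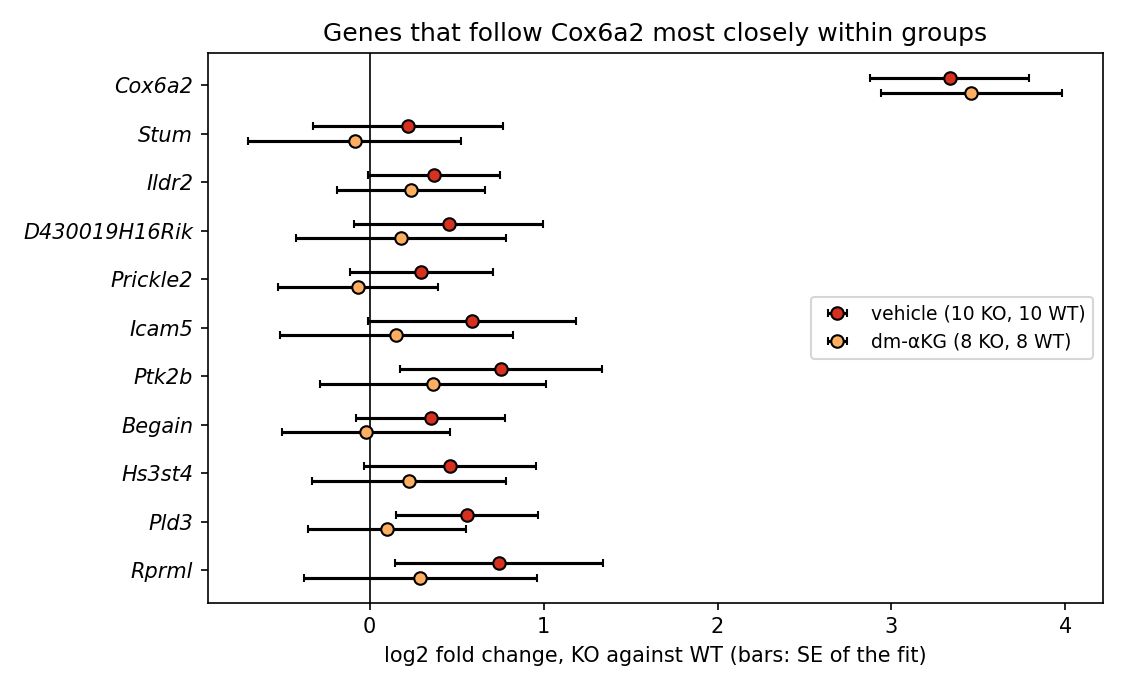
Fitted log2 fold change of knockout against wild type for Cox6a2 and the 10 genes that followed it most closely across libraries within groups, with vehicle (red) and with dm-αKG (orange); bars are standard errors. The 10 genes lie between -0.09 and 0.75 and Cox6a2 at 3.34 and 3.46.

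Among the libraries that were not cerebellum-rich, Cox6a2 was set against 5 marker scores in each genotype, 10 relations in all, with groups centred and permutation p-values adjusted over the 10. In knockout (n = 16) the cortex score gave r = 0.70 (permutation p = 0.00327, adjusted 0.0327) and Spearman's rho 0.75 (permutation adjusted p = 0.0136). Without the 2 libraries farthest from the median score r was 0.59 (permutation p = 0.0296, adjusted 0.296), so the relation past the threshold rests on those libraries. In wild type (n = 11) the same relation had r = 0.52 and rho 0.57 (permutation adjusted p = 0.381 and 0.239).

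The parvalbumin score in knockout gave r = -0.59 (permutation adjusted p = 0.0763) and rho -0.65 (permutation adjusted p = 0.0424), and r = -0.42 (permutation adjusted p = 0.578) without the 2 farthest libraries. In wild type r was -0.01 and rho -0.10 (permutation adjusted p = 0.970 and 0.863). The ATF4 score had r = 0.28 and rho 0.32 in knockout (permutation adjusted p = 0.581 and 0.565) and r = 0.09 and rho 0.05 in wild type (permutation adjusted p = 0.970 and 0.903). No relation with the somatostatin or striatum score passed in either genotype (permutation adjusted p of 0.581 or more for r).

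None of the genes described around Cox6a2 was called. Neighbouring tested genes in the RefSeq table (GRCm38.p6) were, on one side and the other, Pycard, Gm19366, Itgam and Itgad, and Armc5, Tgfb1i1, Rusf1, Gm6916 and Rgs10. In edgeR 0 of these 9 were called in either genotype comparison, against 4.31% and 1.87% of all genes. For 9 genes a count of 0 is near those shares. At an unadjusted p under 0.05 there were 2 (Pycard and Gm19366) and 1 (Itgad), beside 21.0% and 15.7% of all genes. Itgad lies on the opposite strand, and in the GENCODE annotation it spans all 953 bases of Cox6a2. Its mean was 1.69 ± 1.65 CPM in WT-Veh, 1.80 ± 2.10 in WT-aKG, 2.73 ± 1.45 in KO-Veh and 4.77 ± 2.81 in KO-aKG (SD), so its level was below that of Cox6a2 in each group mean. Its log2 fold change was 0.69 (SE 0.49; adjusted p = 0.422 in edgeR) in the vehicle groups and 1.38 (SE 0.54; adjusted p = 0.191) in the dm-αKG groups. No source used here says whether the counting used strand, so reads from Itgad and Cox6a2 cannot be fully told apart.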

How the data were processed

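For each library the authors deposited estimated counts per gene, whole in the file, and CPM for 21637 genes. When counts were recovered from the CPM table, 35 of 36 Cox6a2 values were whole within 0.2. Per the submitters' processing notes the tools were HISAT2 2.2.1, featureCounts 2.0.6, Trim Galore 0.6.10, SAMtools 1.6, deepTools and FastQC 0.12.1, with the builds mm10 and mm39. The build behind the counts, and any use of strand or of the unique molecular identifiers in the primers (per the labels' protocols), were not given in the sources used here.

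Counts were fitted with edgeR 4.0.16 (R 4.3.3): filterByExpr (16255 genes), TMM, 1 robust quasi-likelihood model of the 4 groups, adjusted p under 0.05. Intervals are 95%. Scores and correlations used log2 CPM with a prior count of 2, and paralogue ratios used counts + 0.5. None of 146 within-group library pairs was identical. Paralogue ratios were tested by exact permutation in SciPy 1.17.1, and the relations to marker scores by 100000 random permutations. Alternatives were DESeq2 1.42.0, DESeq2 size factors, no filter, only the groups compared, cerebellum or cortex score as covariate, no cerebellum-rich libraries, a replicate block, the CPM table in limma 3.58.1 as log2(CPM + 0.5, 0.1 or 1), and leaving out each library.

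The gene, lists and tests were chosen with earlier results of these data known. Genes named were Cox6a2, Cox6a1, Gpt2, Pvalb, Sst, Vip, Gad1, Ckm, Acta1, Cox7a1 and Cox8b, called members of the complex IV, assembly and interneuron lists, the 10 genes most like Cox6a2, the 5 nearest tested genes on each side, and the 3 next by fold change. Others (Cox6b1, Cox6b2, Cox8c, Neb, Kcns3, Fgf21, Snap25, Slc1a2, Mbp, Pmch and Hcrt, and the 4 other markers named as called without KO-Veh-7) were named after their values were seen. Some genes under these rules are not reported here.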

Additional observations from a re-analysis of the deposited data

Results flagged for a closer look

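In 32 checks of a group for a library far from the rest, for which chance flags about 1 in 20 groups, 6 values stood apart. KO-Veh-7 accounted for 5 of them. In KO-Veh its log2 CPM was 2.61 for Cox6a2, 3.15 for Sst and 0.32 for Vip, each below the other 9 libraries. Its log2 CPM of Pvalb was 11.08, above the others, and its log2 ratio of Cox6a2 to Cox6a1 counts was -7.98, below the others. This library had the highest cerebellum score of all libraries (7.36). In KO-aKG the log2 CPM of Sst in KO-aKG-8 was 6.83, below the other 7 libraries.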

How the results depend on the processing

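The rise of Cox6a2 kept its direction under all 11 alternatives, with log2 fold changes of 2.77 to 3.54 with vehicle and 2.78 to 3.85 with dm-αKG, and of 3.19 to 3.49 and 3.30 to 3.63 when each library was left out in turn. Whether replicate numbers pair the libraries was not settled. In each of the 6 pairs of groups some same-numbered libraries had deviations that did not correlate above 0.1. The number above 0.1 ran from 3 of 8 (for example WT-Veh and WT-aKG, r of -0.75 to 0.76) to 7 of 8 (WT-aKG and KO-aKG, r of -0.45 to 0.70). Libraries of different numbers were not compared in this way, so the check cannot exclude a pairing. With a replicate block Cox6a2 gave 3.36 and 3.64, treatment in wild type -0.61 and in knockout -0.33, and the block changed only the count of interneuron markers with vehicle, to 1.

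The treatment difference of Cox6a2 in knockout turned to 0.44 with the cortex score as covariate (chosen after seeing the data), and the interaction to -0.24 without cerebellum-rich libraries (adjusted p = 0.783 in edgeR). With the cortex score the interaction was 0.86 (SE 0.34, adjusted p = 0.775). Leaving out single libraries gave an interaction of -0.0338 to 0.30, below 0 without WT-Veh-4, WT-aKG-7, KO-Veh-7 or KO-aKG-1. The knockout treatment difference then ran from -0.58 to -0.31 and the wild-type one from -0.73 to -0.40, and Cox6a1 gave 0.21 to 0.35 and -0.29 to -0.18. The paralogue ratio in wild type was -0.66 without cerebellum-rich libraries and -0.92 to -0.38 without single ones. In knockout it was -0.38 and -0.37 to 0.13, below 0 without KO-Veh-6, KO-Veh-7, KO-aKG-1 or KO-aKG-2.

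Without the 2 farthest libraries, relations of Cox6a2 turned to 0.0763 (parvalbumin, wild type), 0.32 (striatum, wild type), 0.0096 (striatum, knockout) and -0.0460 (ATF4, knockout), and the cortex relation in knockout fell short at 0.59. Spearman's rho for parvalbumin in knockout passed at -0.65.

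Complex IV subunits called with vehicle numbered 0 to 1 when libraries were left out (1 without KO-Veh-7). With dm-αKG 0 were called with no filter, with only the 2 groups, without cerebellum-rich libraries and in the CPM table at each pseudocount (0.1, 0.5 and 1), 2 with DESeq2, and 0 to 1 when libraries were left out. Interneuron markers called with vehicle numbered 0 with no filter, with only the 2 groups and in the CPM table at each pseudocount, 1 with either score as covariate and without cerebellum-rich libraries, 5 with DESeq2, and 0 to 8 when libraries were left out (8 without KO-Veh-7, 4 without WT-Veh-4). With dm-αKG the number was 1 with the cerebellum score and without cerebellum-rich libraries, 2 with the cortex score, and 0 to 1 when libraries were left out (1 without WT-aKG-8). The cause of these changes was not tested.

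Counting error bears on the lowest values: the 3 cerebellum-rich WT-Veh libraries held 9 to 17 counts of Cox6a2.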
